A study of Mus musculus with 18 samples.

Results

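The genes described here encode fibronectin (Fn1), fibrillins (Fbn1 and Fbn2), the matricellular proteins thrombospondin 1 and 2 (Thbs1 and Thbs2), Sparc, periostin (Postn) and tenascin C (Tnc), and the collagen and elastin cross-linking enzyme lysyl oxidase (Lox). They were taken by name, and all 9 symbols matched an Ensembl gene. Of these, 8 had a peak in at least 1 list, out of 12634 genes with a peak in the series. Fbn2 had none in any list. The 8 genes carried 394 peaks of 338246 in all, between 30 (day 5) and 62 (siFTO 1) per list.

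The assay was m6A-seq, which locates N6-methyladenosine (m6A), the methylated form of adenosine in mRNA. It was run on 3T3-L1, a fibroblast line from mouse embryo whose cells can be driven to become adipocytes. Fragmented poly(A) RNA was pulled down with an antibody to m6A (the IP) and compared with its input, and the authors deposited 9 peak lists for the 18 samples. The stage lists are 1 each for days -2, 0, 2, 5 and 10 of adipogenesis. The knockdown lists are 2 from siCtrl cells, labelled control or normal, and 2 from siFTO cells, labelled as a knockdown of Fto, an m6A demethylase. The labels call the cells of every sample pre-adipocytes, give no day for the siRNA cells and name no inducing agent. The lists hold no RNA levels, so the knockdown itself was not checked here. 3T3-L1 is a single line, so no animal or donor stands behind the replicates, and nothing says that the 2 lists of a group came from separate cultures. A p-value here therefore only ranks the difference between groups among those from reassigning these lists, whose spread may be technical.

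Fibronectin and the fibrillins form the fibres on which other matrix proteins assemble. Matricellular proteins sit in the matrix and alter how cells attach and respond to growth factors rather than bearing load. Preadipocytes are surrounded by a fibronectin-rich matrix that is remodelled as they round up and store fat. The m6A mark is placed by a methyltransferase complex on a subset of adenosines, removed by demethylases such as Fto, and bound by reader proteins that affect the splicing, translation and decay of the RNA.

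The measure used for each gene is its covered bases, the length of the union of its peaks in one list, in bases. It does not change when a long stretch is divided into adjoining peaks. The fold printed with a peak is the authors' value of IP over input, and its percentile is its rank among all peaks of the same list. No read counts come with the peaks, so sequencing depth is unknown. List length differed, from 26485 peaks and 3249746 covered bases on day -2 to 44529 peaks and 6125316 covered bases on day 10. There were 35979 and 39133 peaks in siCtrl 1 and siCtrl 2, and 39476 and 31259 in siFTO 1 and siFTO 2. A gene without a peak may have had little RNA or little of it methylated, and these lists cannot tell those apart. For the same reason, fewer cells expressing a gene and less of its RNA per cell cannot be told apart. As a check of the labels, 7 of 8 adipocyte markers had a peak on days 2, 5 and 10, against 4 on day -2 and 3 on day 0. All 7 fibroblast markers had a peak in each stage list and each siCtrl list and 6 of 7 in each siFTO list, and none of 3 macrophage and 3 endothelial markers had one in any list. Covered bases of the fibroblast markers were 9775 and 10100 in siCtrl against 7050 and 5525 in siFTO, and 4950 on day -2 against 12425 on day 0. Those of the adipocyte markers were 1900 and 1800 against 1025 and 1275, and 1100 against 2166. The part of these differences in the results for the members was not tested. Peaks on these genes had a median length of 125 bases and a range of 75 to 200. No peak of the 8 genes overlapped a peak listed for another gene in the same list.

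**Figure D1:**
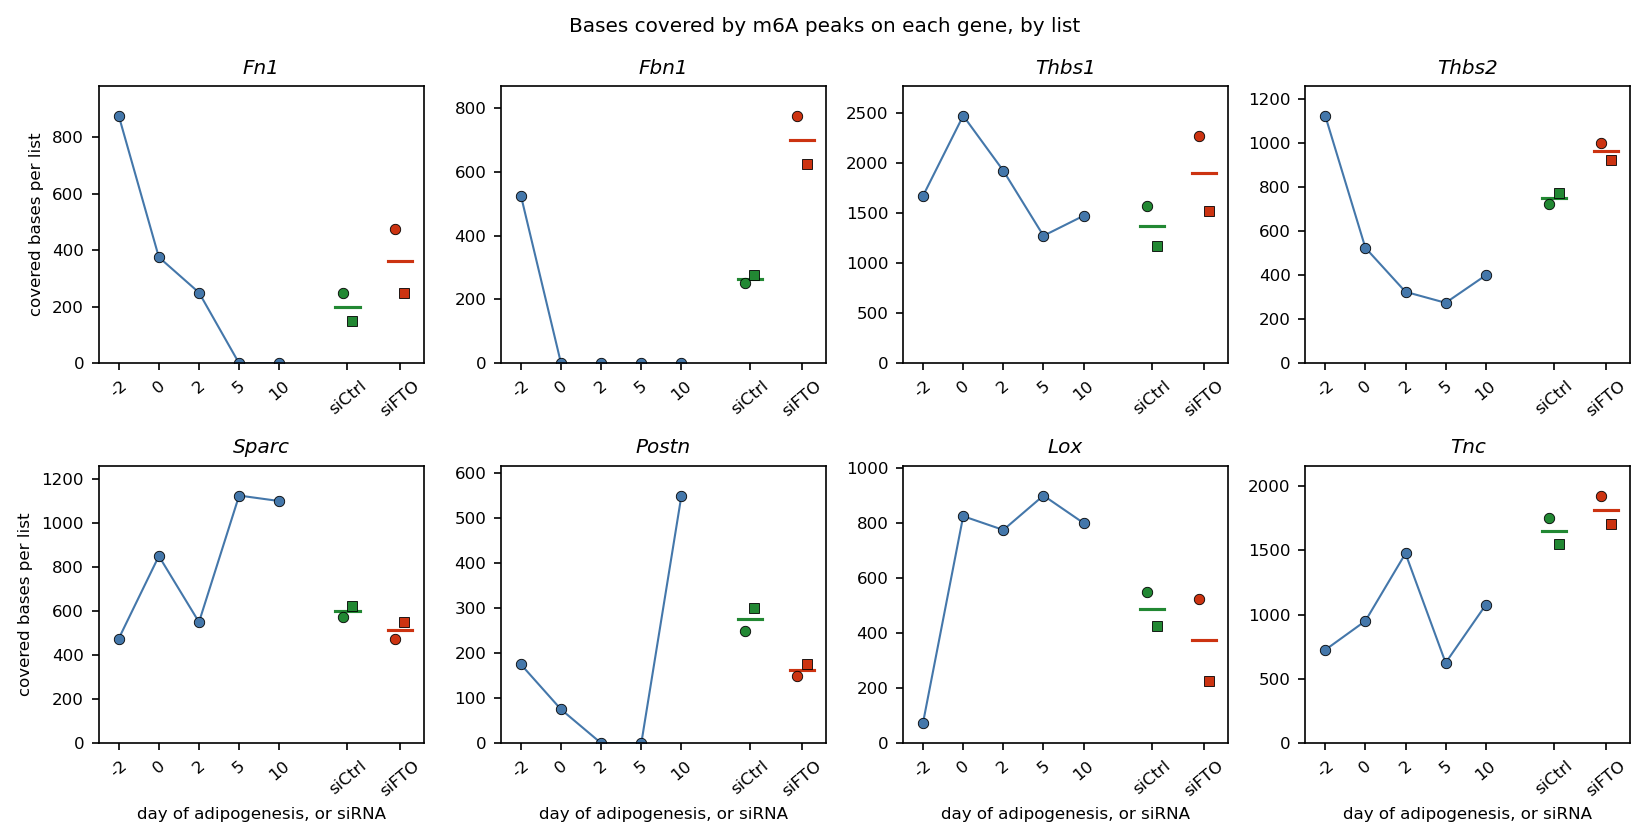
Covered bases (vertical axis, bases, each panel with its own scale from 0) of the 8 genes with peaks. Blue points joined by lines are the single lists of days -2, 0, 2, 5 and 10; green and red points are the siCtrl and siFTO lists (circle replicate 1, square replicate 2) and the short bars are their means. Fn1 and Fbn1 are at 0 on days 5 and 10, Lox is at 75 on day -2 and between 775 and 900 on days 0 to 10, and the siFTO points of Fbn1 and Thbs2 lie above both siCtrl points.

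Fibronectin peaks were found in early stages and in the siRNA cells. Fn1 (ENSMUSG00000026193, chromosome 1, 71585473 to 71653280, mm10) had 875, 375, 250, 0 and 0 covered bases on days -2, 0, 2, 5 and 10. The values were 250 and 150 in siCtrl against 475 and 250 in siFTO, so the siRNA groups met at 250. Of its 28 peaks, 26 were in the coding sequence, and their folds were low, with a median percentile of 0.895 and a highest of 19.3. The coding region at 71597651 to 71597750 was the most widely shared, held by 7 lists, those of days -2, 0 and 2 and all 4 siRNA lists. A neighbouring region at 71598351 to 71598425 was held by days -2, 0 and 2 and both siFTO lists, but not by siCtrl. A region nearer the gene start, 71645526 to 71645725, was held by both siCtrl lists and by neither siFTO list. The highest fold on the gene, 91.4 at percentile 94.3 of the day -2 list, belonged to an intronic peak at 71613401 to 71613550 that no other list held.

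Fibrillin 1 peaks were absent from every stage list after day -2. Fbn1 (ENSMUSG00000027204, chromosome 2, 125300594 to 125506485), which encodes the main protein of microfibrils, had 525 covered bases on day -2 and none on days 0, 2, 5 and 10. Among the siRNA lists, 250 and 275 bases were covered in siCtrl and 775 and 625 in siFTO. The siFTO lists were both above the siCtrl lists, and the day -2 list lay between the groups. A 3' UTR region at 125300751 to 125300925 and a coding region at 125321651 to 125321775 were in all 4 siRNA lists and on day -2. Folds are not shown to be comparable between lists, so ranks within each list are given. The 3' UTR peak stood at percentiles 11.9 and 9.2 of the siCtrl lists and 31.0 and 29.0 of the siFTO lists. The coding peak stood at 3.8 and 4.9 in siCtrl and 36.2 and 41.5 in siFTO. A coding region at 125365551 to 125365675 was in both siFTO lists and on day -2. It ranked low, at percentiles 2.6 and 0.1 of siFTO 1 and siFTO 2 and 9.5 of day -2. An intronic region at 125505351 to 125505425, 1060 to 1134 bases after the gene start, was in both siFTO lists and no other list.

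Covered bases of the thrombospondins differed in opposite directions from day -2 to day 0, Thbs1 within 2-fold, and in the same direction, both within 2-fold, at each later step. Thbs1 (ENSMUSG00000040152, chromosome 2, 118111876 to 118127133), an activator of latent TGF-beta and inhibitor of angiogenesis, had peaks in all 9 lists, 116 in total. On days -2, 0, 2, 5 and 10 its covered bases were 1675, 2475, 1925, 1275 and 1475. They were 1575 and 1175 in siCtrl and 2275 and 1525 in siFTO, so that siCtrl 1 lay above siFTO 2. It held 4 of the 8 regions of these genes that were found in all 9 lists. Of all member regions 8.99% were in all 9 lists, against 10.8% over all genes.

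These shared Thbs1 regions lay in all 3 parts of the transcript. The region of 250 bases at the gene start was labelled 5' UTR. A coding region of 600 bases at 118112951 to 118113550 was covered over 600 bases on days 0 and 2, over 475 on days 5 and 10 and in siCtrl 1, siCtrl 2 and siFTO 1, over 450 in siFTO 2 and over 350 on day -2. Its highest fold in each list ranged from 5.12 in siCtrl 2 to 31.4 on day 2, at percentiles 70.0 and 92.0 of those lists. A second coding region lay at 118120826 to 118121050. The 3' UTR region at 118125301 to 118125750 was covered over 325, 425, 275, 250 and 275 bases on days -2, 0, 2, 5 and 10. In the siRNA lists the same 450 bases were covered over 425 and 400 in siCtrl and 450 and 400 in siFTO. The fold percentile of its best peak was 87.1 and 58.9 in siCtrl, and 89.9 and 71.2 in siFTO. Day -2 stood at 64.8 and days 0 to 10 at 6.8 to 28.3. A further 3' UTR region, 118126176 to 118126325, was in all 4 siRNA lists and in no stage list.

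Thbs2 (ENSMUSG00000023885, chromosome 17, 14665500 to 14694262), a related inhibitor of angiogenesis that also affects collagen fibril assembly, had 1125 covered bases on day -2 and 525, 325, 275 and 400 on days 0, 2, 5 and 10. The siCtrl lists had 725 and 775 and the siFTO lists 1000 and 925, so the siFTO lists lay above. Its coding region of 325 bases at 14689851 to 14690175 was in all 9 lists and was covered over 250 (day 2) to 325 bases (days 0 and 10). On day 5 these 275 bases were all that was covered on the gene. Coding regions at 14673226 to 14673400 and 14679676 to 14679775 were found in siFTO 1 and siFTO 2 and not in siCtrl, the first also on days -2 and 2. In siFTO 1 and siFTO 2 the first stood at percentiles 29.2 and 27.2 and the second at 0.3 and 1.2.

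**Figure D2:**
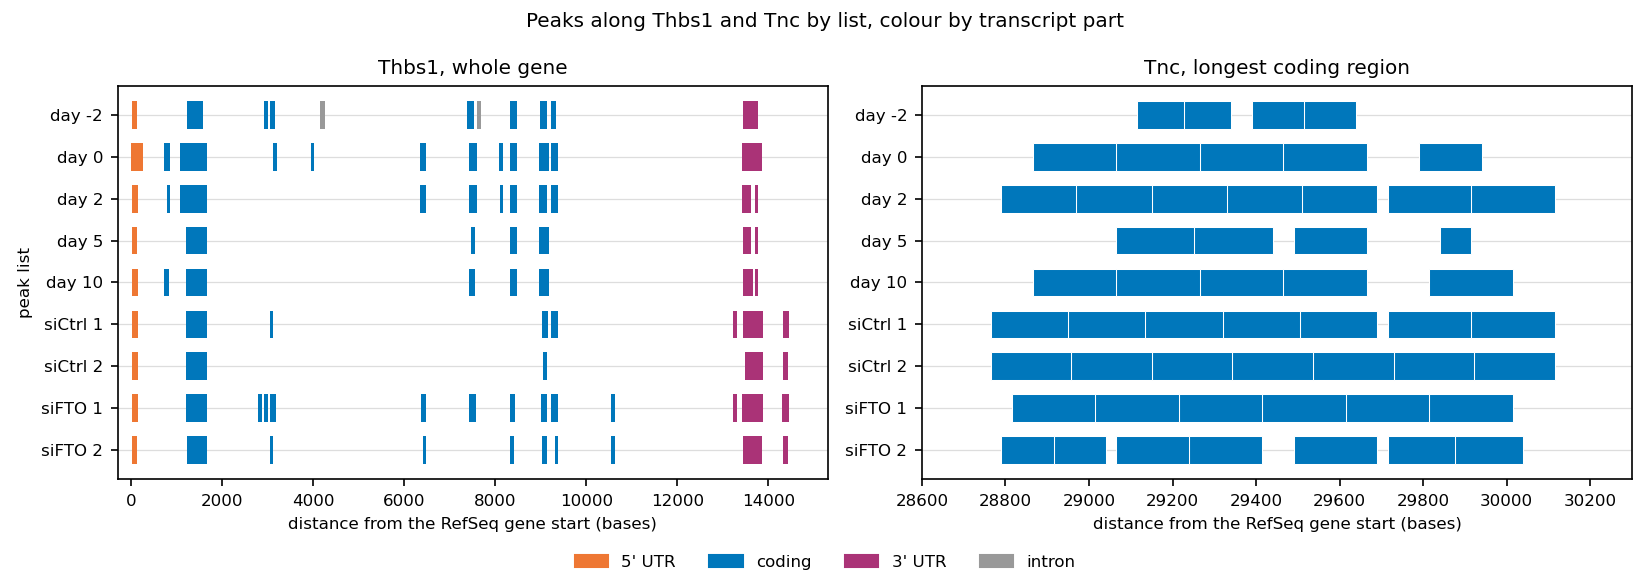
Peaks of each list (rows) along Thbs1 (left, whole gene) and the longest coding region of Tnc (right), against distance from the RefSeq gene start in bases, in the direction of transcription. Boxes are peaks drawn to scale and coloured by the authors' transcript part; in the Tnc panel white lines separate adjoining peaks. On Thbs1 the stretches at the gene start, in the 600-base coding region and in the 3' UTR recur in all 9 rows; on Tnc the siCtrl rows cover 1325 and 1350 bases and the day -2 row 475.

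Tenascin C carried the longest region of these genes. Tnc (ENSMUSG00000028364, chromosome 4, 63959785 to 64047015), an anti-adhesive glycoprotein made in development and wound repair, had 725, 950, 1475, 625 and 1075 covered bases on days -2, 0, 2, 5 and 10. It had 1750 and 1550 in siCtrl and 1925 and 1700 in siFTO, with siCtrl 1 above siFTO 2. The long coding region, 1350 bases at 64016901 to 64018250, was held by all 9 lists. It was covered over 1325 and 1350 bases in siCtrl, 1200 and 1125 in siFTO, and 475, 950, 1300, 625 and 1000 on days -2, 0, 2, 5 and 10. Both siFTO lists thus covered less of this region than either siCtrl list, although the whole gene's covered bases did not separate the groups. The best peak in the region stood at percentiles 96.8 and 96.7 of the siCtrl lists, 73.8 and 64.7 of the siFTO lists, 88.2 of day 2 and 45.0 of day -2.

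The remaining covered bases of Tnc in siFTO came from shorter peaks elsewhere. Intronic peaks ranked high. One at 63986051 to 63986200 was in siFTO 1, siFTO 2 and day -2, with folds of 49.3, 75.4 and 280.4 at percentiles 98.6, 99.1 and 98.9. A coding region at 63976426 to 63976525 was in both siFTO lists and no other list. In siFTO 1, a 3' UTR peak and an intronic peak of Tnc had the same fold, 25.4, although they lay at 63959851 to 63959925 and 63986626 to 63986750.

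Sparc peaks differed between lists in position as well as in covered bases. Sparc (ENSMUSG00000018593, chromosome 11, 55394159 to 55420080), a collagen-binding glycoprotein known to restrain adipogenesis, had 475, 850, 550, 1125 and 1100 covered bases on days -2, 0, 2, 5 and 10. The siCtrl lists had 575 and 625 and the siFTO lists 475 and 550, so the siFTO lists lay below. Coding regions at 55398626 to 55398700, 55405176 to 55405325 and 55406501 to 55406600 showed one pattern. Each was held by days 0, 2, 5 and 10 and both siCtrl lists, and by neither day -2 nor siFTO. Their siCtrl peaks ranked low, at percentiles 6.6 and 11.2, 1.5 and 8.6, and 0.8 and 4.3 of siCtrl 1 and siCtrl 2. A further coding region, 55399176 to 55399325, was in all 9 lists. A 3' UTR region at 55394801 to 55394925 was in both siFTO lists and no other list, at fold percentiles 1.0 and 0.1.

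At the 5' end of Sparc the positions of the peaks differed between lists. The merged region labelled 5' UTR, 55419776 to 55420175, held a peak of all 9 lists. The day -2 peak joined it only through the peaks of days 5 and 10. It shared no base with those of day 0, day 2, siCtrl or siFTO. On days -2, 5 and 10 its outermost peak reached 95, 45 and 70 bases upstream of the RefSeq gene start, with folds of 22.7, 25.8 and 18.3 at percentiles 83.3, 88.3 and 81.7. In the other lists the peaks ended 80 (day 2, siCtrl 2), 105 (day 0, siCtrl 1) and 155 bases (both siFTO lists) after that start. Their folds were 1.39 to 5.86, the last being siCtrl 2 at percentile 75.7 and the others lying at 18.1 or below. Days 5 and 10 also held an inner peak, at 55419776 to 55419950 and 55419801 to 55419975. These inner peaks overlapped those of days 0 and 2, siCtrl and siFTO, and stood at percentiles 2.1 and 0.4. Only day -2 had no such inner peak. The authors labelled the peaks that reach upstream of the RefSeq start as 5' UTR too. The 30 bases across the RefSeq start are shown because the outermost peaks of days -2, 5 and 10 span them and those of the other 6 lists do not. They are RefSeq sequence (GRCm38.p6, chr11:55420066-55420095, minus strand, read 5′ to 3′), with the bases from the RefSeq start onward in capitals.
Sparc RefSeq start: cagaacagatgagacAGGTGGGGCCAGGGT

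The letters GGAC, the core of the m6A consensus, were searched on both strands in the 300 bases from 250 before to 50 after the start. They occurred on the sense strand, beginning 186 and 121 bases upstream, beyond the outermost peak end at 95, and not on the antisense strand. The region runs on to 304 bases after the start, and its bases beyond 50 were not searched, nor were other forms of the consensus. The search therefore cannot tell whether these peaks hold an m6A consensus site. GGAC was on the sense strand of 65.7% of 32851 RefSeq promoters of the same length, and on either strand of 87.7%. Of the other members, Fbn1, Thbs2, Postn and Tnc had promoters in the table, and no peak reached them. Fn1, Fbn2, Thbs1 and Lox had no entry in it.

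Periostin had few peaks. Postn (ENSMUSG00000027750, chromosome 3, 54359267 to 54391041), a matricellular protein that promotes collagen assembly, had 175, 75, 0, 0 and 550 covered bases on days -2, 0, 2, 5 and 10. It had 250 and 300 in siCtrl and 150 and 175 in siFTO. Both siFTO lists lay below both siCtrl lists. Coding regions at 54377551 to 54377625 and 54383376 to 54383475 were in all 4 siRNA lists and on day -2, and the second also on day 10. The region at 54375001 to 54375150 was in both siCtrl lists and on days 0 and 10, and in neither siFTO list. Its siCtrl peaks stood at percentiles 1.1 and 2.2 of siCtrl 1 and siCtrl 2. The day 10 peaks were weak, with folds of 0.96 to 2.56, and the highest stood at percentile 13.4 of that list.

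Lysyl oxidase peaks lay at different places in siCtrl and siFTO. Lox (ENSMUSG00000024529, chromosome 18, 52516060 to 52529867) had 75 covered bases on day -2 and 825, 775, 900 and 800 on days 0, 2, 5 and 10. It had 550 and 425 in siCtrl and 525 and 225 in siFTO, which overlap. Near the gene start lay a region of 900 bases at 52528801 to 52529700, labelled coding and, toward the start, intron. All covered bases of days 0, 2, 5 and 10 and of siCtrl were in this region, as 1 unbroken stretch on each of the 4 days and 2 stretches in each siCtrl list. Neither siFTO list and not the day -2 list had a peak in it. The siFTO peaks were instead in the 3' UTR and in introns, among them a 3' UTR region at 52516701 to 52516825 and an intronic region at 52526576 to 52526700 that both siFTO lists and no other list held. The single day -2 peak was also in the 3' UTR, at 52518576 to 52518650. The region's best fold was 23.5, 12.3, 36.5 and 19.0 on days 0, 2, 5 and 10, at percentiles 87.6, 76.4, 92.5 and 82.5. In siCtrl it was 3.92 and 3.33 at percentiles 57.4 and 47.3, both in peaks labelled intron. The siCtrl coding peaks of the region ranked low, at percentiles 4.1 and 1.4 in siCtrl 1 and 0.3 in siCtrl 2.

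**Figure D3:**
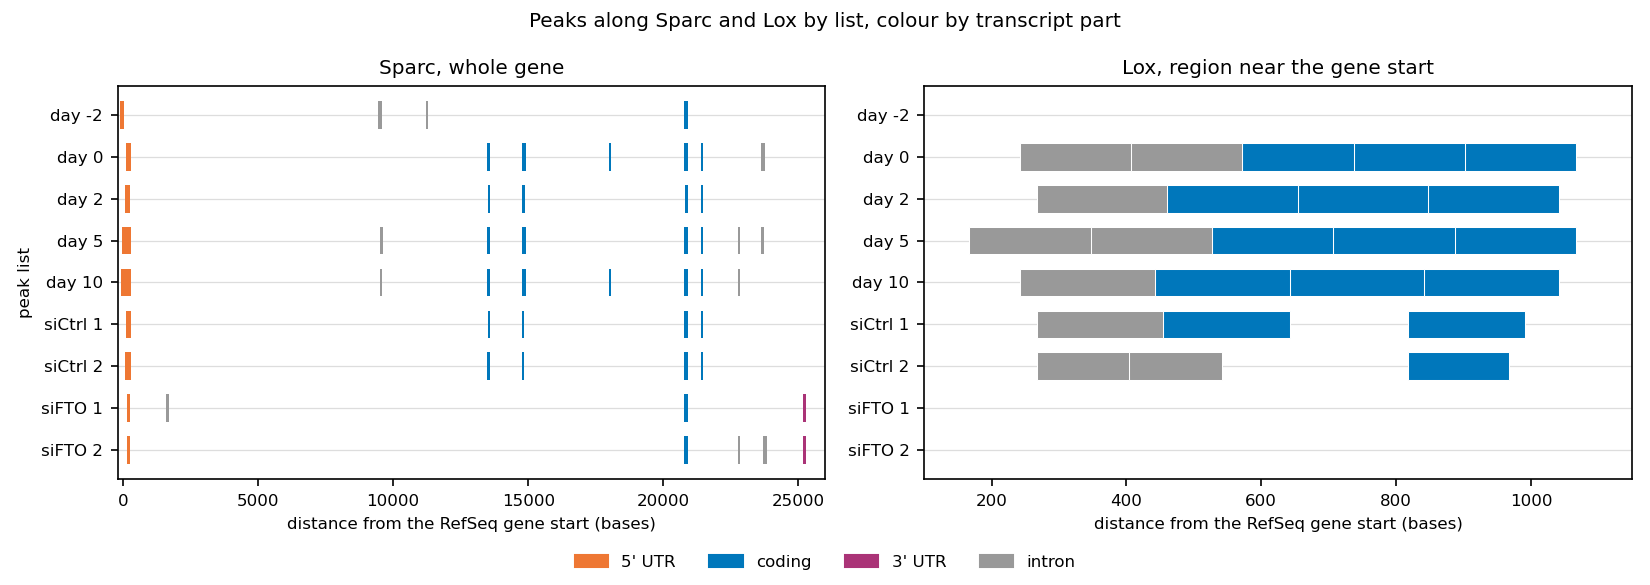
Peaks of each list (rows) along Sparc (left, whole gene) and the region near the gene start of Lox (right), against distance from the RefSeq gene start in bases, in the direction of transcription. Boxes are peaks drawn to scale and coloured by the authors' transcript part; in the Lox panel white lines separate adjoining peaks. The day -2 and both siFTO rows lack the 3 shared coding regions of Sparc and are empty in the Lox region, where days 0 to 10 cover 775 to 900 bases.

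Depletion of a demethylase raises the question of where these transcripts carry peaks without it. Both siFTO values lay above both siCtrl values for Fbn1 and Thbs2, 2 of the 8 members with a peak, where 25.8% of 11482 genes were higher. Both lay below for Sparc and Postn, again 2 of 8, where 33.4% of all genes were lower. Both counts are close to what these shares would give for 8 genes. The remaining 4 members, Fn1, Thbs1, Lox and Tnc, overlapped between the groups. The median log2 ratio of covered bases, siFTO over siCtrl with 100 bases added to each mean, was 0.225 over the 8 members and 0 over all genes.

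The mean of Fbn1 was 700 ± 106 covered bases after Fto knockdown and 262.5 ± 17.7 in siCtrl (SD, n = 2 lists each), a ratio of 2.67 and a difference of 437.5 (exact permutation p = 0.333, two-sided). Thbs2 had 962.5 ± 53.0 against 750 ± 35.4, a difference of 212.5, Sparc 512.5 ± 53.0 against 600 ± 35.4, a difference of -87.5, and Postn 162.5 ± 17.7 against 275 ± 35.4, a difference of -112.5 (SD, n = 2 each). Each of these had the same exact permutation p = 0.333, the smallest that 2 lists against 2 allow, so this design cannot reach a low p. Fn1, Thbs1, Lox and Tnc differed by 162.5, 525, -112.5 and 162.5 bases, each with an exact permutation p = 0.667.

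Sparc and Thbs2 turned to the opposite direction when only peaks at or above the median fold of each list were kept, with differences of 69 and -62.5 bases, and Sparc also at equal list lengths (225). The number of members with more covered bases in siFTO changed between alternatives, and the cause was not tested. After division by the total covered bases of each list, an alternative chosen after seeing the data, Fn1, Thbs1 and Tnc joined Fbn1 and Thbs2, making 5 higher, and Postn alone was lower. Over all genes the shares then became 34.5% higher and 29.0% lower. The same 5 members were higher without siCtrl replicate 1, where 27.5% of all genes were, and without siFTO replicate 2, where 47.2% were. Together the members held 0.1215% and 0.0994% of the covered bases of the siCtrl lists and 0.154% of each siFTO list. That is 5925 and 5275 bases in siCtrl against 7600 and 5975 in siFTO.

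By region, the peaks of the 9 lists on these genes merged into 89 regions, of which 67 were held by at least 1 siRNA list. Those held by siFTO 1 and siFTO 2 but by no siCtrl list were 14 of the 67 (20.9%), where 12.3% of 47900 regions over all genes were gained in this way. These lay on Fn1, Fbn1, Thbs2, Lox and Tnc with 2 each, Thbs1 with 3 and Sparc with 1. Of the 14, 9 were coding, 3 intronic and 2 in a 3' UTR. The reverse, a region lost in siFTO, was found for 6 (8.96%), against 14.6% over all genes, namely 3 on Sparc and 1 each on Fn1, Postn and Lox. Without siFTO replicate 2, 30 regions were gained. With peaks at or above the median fold of each list 4 were gained and 0 lost, and at equal list lengths 11 were gained and 1 lost. The shares over all genes were not computed under these alternatives. No test was made on these counts, since regions are not replicates.

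Of the 6 lost regions, 1, 6, 5, 4 and 5 were also held by the lists of days -2, 0, 2, 5 and 10, where the shares of lost regions over all genes were 15.5%, 70.2%, 67.5%, 75.9% and 77.02%. Of the 14 gained regions, the same lists held 6, 3, 4, 1 and 1, and no stage list held 7. Over all genes those shares were 36.2%, 11.3%, 14.3%, 17.0% and 18.3%, with 50.6% in no stage list, so the 6 of 14 on day -2 (42.9%) and the 7 of 14 in no stage list were near the shares over all genes. The groupings of lists that follow were not among the planned comparisons. Over all 89 regions, 40 (44.9%) were held by day -2 or a siFTO list and by no other list, where 30.2% of 67991 regions over all genes were. Only on Sparc (3) and Lox (1) were there regions held by exactly days 0, 2, 5 and 10 and both siCtrl lists, 4 of 89 (4.49%) against 4.95% over all genes.

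**Figure D4:**
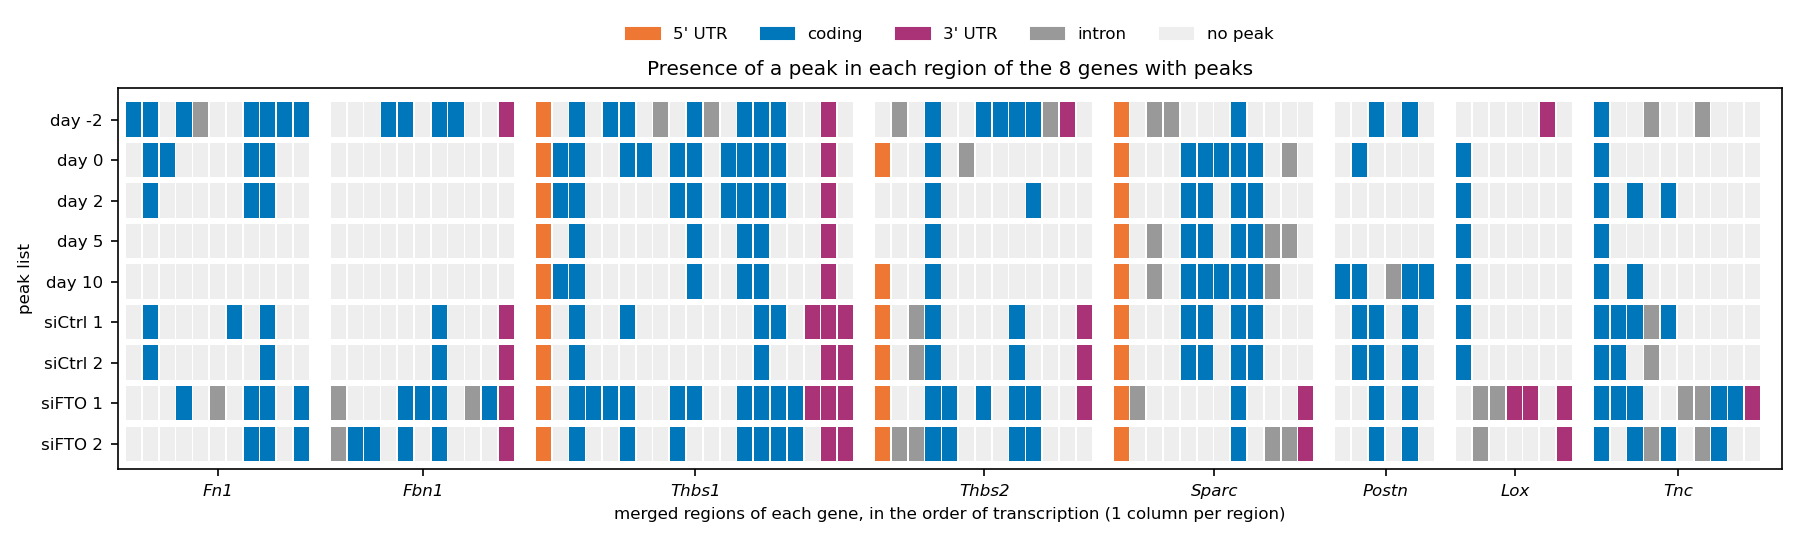
Presence (colour) or absence (pale grey) of a peak in each of the 89 merged regions (columns, in the order of transcription within each gene) for the 9 lists (rows). Colour is the authors' transcript part, and the Lox region labelled coding and intron is drawn as coding. Fbn1 is empty on days 0 to 10, and in the siFTO rows Sparc lacks 3 coding regions and Lox its first region, all of which the siCtrl rows hold.

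Transcript parts differed between the lists on these genes. Peaks in the 5' UTR made up 4.61% and 4.60% of the members' covered bases in the siFTO lists and 7.59% and 8.53% in siCtrl. The corresponding shares over all genes were 4.31% and 5.02% in siFTO and 12.3% and 11.5% in siCtrl, a difference in the same direction. Intronic peaks covered 925 and 900 bases of the members in siFTO and 387 and 500 in siCtrl, or 12.2% and 15.1% against 6.53% and 9.48% of the members' bases. Over all genes the intronic shares were 18.6% and 16.7% against 10.9% and 11.6%, again in the same direction. The 3' UTR bases were 1450 and 900 against 900 and 825. Coding bases were 4875 and 3900 in siFTO and 4188 and 3500 in siCtrl, which overlap. On day -2 the members had 225 bases in the 5' UTR and 1025 in introns, and on days 0 to 10 between 300 and 550 in the 5' UTR and between 193 and 685 in introns. Over all genes introns held 22.4% of covered bases on day -2 and 13.3% to 14.6% on days 0 to 10, so the members' intronic bases differed in the direction of the whole lists.

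Intronic peaks had a higher median fold rank than the others, with wide overlap. The 46 intronic peaks had a median percentile of 82.6 within their lists, against 20.0 for 276 coding peaks, 21.8 for 44 in 3' UTRs and 7.06 for 28 in 5' UTRs. Single intronic peaks ranked as low as 13.4 (Postn), and coding peaks as high as 96.8 (Tnc). Of the 21 regions that were intronic alone, 12 were held by a single list and none by all 9. Of the 52 coding regions, 5 were in all 9 lists. Over all parts, 37.1% of the member regions were held by 1 list and 8.99% by all 9. The shares over all genes were 31.8% and 10.8%. Input read counts are not in these lists, so the part of a low input in the high intronic folds was not tested.

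Over the stages, covered bases were compared between day 0 and day 10, with 1 list each and no p-value. By a 2-fold rule, Postn had more on day 10 (550 against 75), 1 of 7 members with a peak in either list, where 21.1% of 9802 genes had more. Fn1 had fewer (0 against 375), again 1 of 7, where 5.92% of all genes had fewer. The other 5, Thbs1, Thbs2, Sparc, Lox and Tnc, were within 2-fold. The median log2 ratio was -0.04 over these members and 0.20 over all genes. With equal list lengths, made by keeping the highest folds, the call of Postn turned from more to fewer (-75 bases), and Fn1, Postn, Thbs1 and Thbs2 had fewer on day 10, against 12.5% of all genes. With peaks at or above the median fold of each list, neither Fn1 nor Postn was called, and Thbs2 had fewer and Sparc more.

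Between day -2 and day 0, a comparison added after the lists had been examined, 4 of 8 members had at least 2-fold fewer covered bases on day 0, namely Fn1, Fbn1, Thbs2 and Postn. The share over 10606 genes was 25.1%. Fn1 was not called without intronic peaks. With peaks at or above the median fold, Sparc was called and Fbn1 was not. Lox alone had at least 2-fold more, 825 against 75, where 40.6% of all genes had more. The median log2 ratio of the members was -0.15 and that of all genes 0.39. The members' covered bases were 0.174%, 0.118%, 0.0971%, 0.0691% and 0.0882% of the lists of days -2, 0, 2, 5 and 10. These shares correspond to 5650, 6075, 5300, 4200 and 5400 bases.

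Other matrix genes of the same kinds were taken as a list of 48 elastic fibre, matricellular and glycoprotein genes. Of these, 34 had a peak in a siRNA list, and 6 had more and 13 fewer covered bases in both siFTO lists, with a median log2 ratio of -0.35. The shares over all genes, 25.8% and 33.4%, stand against 6 and 13 of 34. Those with more included Nid1 (nidogen 1, a basement membrane linker) with 525 and 300 in siCtrl against 1025 and 750 in siFTO. Thbs3, another thrombospondin, had 325 and 225 against 850 and 625, Loxl2, a lysyl oxidase relative, 0 and 0 against 125 and 200, and Tgfbi 325 and 250 against 400 and 475. Those with fewer were led by Tnxb (tenascin X) with 7025 and 7525 against 2650 and 2250. Emilin1, an elastic fibre glycoprotein, had 3050 and 3125 against 1900 and 1900, Fbln2 (fibulin 2) 1750 and 1750 against 900 and 875, and Nid2 625 and 1275 against 400 and 400. Nid1 and Nid2 thus lay in opposite directions, while of the tenascins Tnxb and Tnr (700 and 1000 against 400 and 225) lay lower, and Tnc and Tnn (900 and 650 against 750 and 450) overlapped. Tnr and Tnn were added to complete the family, after their values were seen.

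From day 0 to day 10, 4 of 33 such genes with a peak had at least 2-fold more covered bases and 6 had fewer, where 21.1% and 5.92% of all genes did. Ltbp4, which tethers latent TGF-beta to microfibrils, had 800 on day 0 and 2000 on day 10, Ecm1 600 and 1300, Loxl3 350 and 825, and Comp 0 and 275. Fbln7 had 625 and 250, Ccn2 (connective tissue growth factor) 200 and 0, Eln (elastin) 175 and 0, and Tgfbi 175 and 0. Between day -2 and day 0, 21 of 37 had at least 2-fold more and 5 had fewer, where 40.6% and 25.1% of all genes did, and their median log2 ratio was 1.02.

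Genes with the most similar pattern of covered bases over the 9 lists were found by Pearson correlation of log2(covered bases + 100) among 5223 genes (5224 for Fn1, Fbn1 and Postn) with a mean of at least 300 bases. All points of a correlation share the same 9 lists and their lengths, and the values are a description. For Fbn1 the closest were Tro (r = 0.997) and Trpm7 (r = 0.996), both with no covered bases on days 0 to 10. For Thbs2 they were Cast (0.990) and Fnip1 (0.972), for Sparc Asap3 (0.986) and Radil (0.971), and for Lox Ubald2 (0.986) and Hexim1 (0.985). Tnc was most like Cln8 (0.950) and Morc2a (0.924), and Fn1 like Srgap1 (0.921) and Chac1 (0.902). Lower values were found for Postn, with Ctnna1 (0.893) and Gcnt4 (0.888), and Thbs1, with Cxcl12 (0.863) and Strn4 (0.784).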

How the data were processed

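The submitters' processing notes name TopHat2 2.0.9, mm10 and bedtools. For the peak caller, its thresholds and any depth scaling, nothing is stated: not given in the sources used here. The deposited enrichment of each peak, per the file headers, was read as a fold (ratio) of IP over input made by the authors. Each list belongs to 1 IP and input pair, so replicates were not pooled. Lists of siRNA samples without a number in their title are called replicate 1. Lines for the mitochondrial genome (50 in all), whose cells are shifted, were left out. Starts count from 1.

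Of 12634 gene IDs, 12492 had a symbol. Gene spans and promoters are from RefSeq (GRCm38.p6). Covered bases per gene and list were computed with pandas 2.3.3. Peaks of one gene that shared at least 1 base were merged into regions over all lists. A gene was called in siFTO when both lists lay beyond both siCtrl lists, and between days at 2-fold. Single members had a two-sided exact permutation test over 6 assignments. The computations were tested on simulated data.

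The members, lists and rules were chosen with earlier results of these data known. Named genes were the 9 members, up to 4 relatives per direction with the largest difference in covered bases, and 2 genes of most similar pattern per member with a peak in at least 5 lists. Alternatives were peak number, peaks at or above the median fold, no intronic peaks, equal list lengths, scaling, other overlaps or folds, left-out replicates and a replicate block.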

Additional observations from a re-analysis of the deposited data

How the results depend on the processing

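Read depth is unknown, so how far it limits the absence of a peak could not be measured, and 138 of the 394 peaks had a fold under 2. Shares over all genes under the same setting stand in parentheses. Against 2 members with more covered bases in siFTO, 4 were found by number of peaks (21.6%) and 5 at equal list lengths (27.7%). After scaling to list totals 5 were found (34.5%). With peaks at or above the median fold 3 were found (26.3%), namely Fbn1, Lox and Sparc, and not Thbs2. Leaving out 1 replicate gave 2 to 5, with 5 without siCtrl replicate 1 (27.5%) and without siFTO replicate 2 (47.2%). The replicate block gave 5 with more (27.3%) and 3 with fewer (35.4%). Nothing says that the numbers pair the samples. Deviations of the first lists from their group means correlated at -0.0344 over 11482 genes. siCtrl 1 was the shorter list of its group and siFTO 1 the longer of its group. The correlation therefore cannot decide whether the number carries a shared effect or whether cultures were paired. Against 2 members with fewer, the count was 1 by number of peaks (24.1%) and 1 with peaks at or above the median fold (30.2%, Tnc). It was 0 at equal lengths (29.6%), 1 after scaling (29.0%) and 2 to 3 with 1 replicate left out (36.3% to 48.9%). With peaks at or above the median fold, 4 regions were gained, 0 lost and 1 was in all 9 lists. At equal lengths 1 was lost. Leaving out 1 replicate gave 14 to 30 gained (30 without siFTO replicate 2) and 6 to 8 lost. For these region counts the shares over all genes were not computed under the alternative settings.

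On day 10 against day 0, 2 members had fewer bases at 1.5-fold (8.99%) and 4 at equal lengths (12.5%), and 0 had more at equal lengths (14.8%). With peaks at or above the median fold both counts stayed at 1, but for other genes, Thbs2 fewer (13.0%) and Sparc more (26.9%). On day 0 against day -2, 2 had more at 1.5-fold (48.7%) and 3 without intronic peaks (46.2%). Fewer on day 0 were 3 without intronic peaks (21.6%, without Fn1), 4 with peaks at or above the median fold (34.2%, Sparc in place of Fbn1) and 6 at equal lengths (36.7%).

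Of the differences per member, Sparc in siFTO minus siCtrl turned to 225 bases at equal lengths and 69 with peaks at or above the median fold, Thbs2 to -62.5 under the latter, and Postn on day 10 minus day 0 to -75 at equal lengths. Members not called also changed sign, namely Lox in siFTO minus siCtrl to 181.5 with peaks at or above the median fold, 94 at equal lengths and 37.5 without siFTO replicate 2, and Tnc to -268.5 with peaks at or above the median fold and -12.5 without intronic peaks. Counting by size, 43 siRNA values stayed within 1 SD, 10 moved further and 3 called ones reversed. For day 10 minus day 0, with no replicate SD, 10 kept their value, 13 moved and 1 reversed. The cause of these changes was not tested.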
